A study of Homo sapiens with 12 samples.

Results

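The LRH-1 siRNAs #1 and #2 were compared with each other in HT29 cells, to ask which genes and functions depend on the siRNA used. The comparison took the 8 arrays of the LRH-1 siRNAs, 4 per siRNA, out of 12 arrays in all, and every probe of the authors' processed table. The remaining 4 arrays came from cells given siLUC, a non-targeting siRNA against luciferase, and served to place each level. HT29 is an established line from a human colorectal cancer. All 12 cultures received their siRNA by reverse transfection with Lipofectamine RNAiMAX at 5 nM, and total RNA was taken after 24 h. The arms therefore shared cells, transfection reagent, dose and time by their labels, which give no scan, slide or transfection day. The 4 arrays of each arm are described in the sources as biological replicates.

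LRH-1 (NR5A2) is a nuclear receptor that binds DNA as a monomer and acts in bile acid and steroid metabolism in the liver and gut and in renewal of the intestinal crypt. An siRNA is loaded into an Argonaute protein and directs cleavage of transcripts that match it along its length. The short seed at the 5′ end of the loaded strand can also pair with unrelated transcripts, which is why a second siRNA of different sequence is commonly used against the same target. No probe named NR5A2 was analysed here, so the depth of the knockdown reached by either siRNA was not checked in these arrays.

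The cells carried the markers of their label. EPCAM, the epithelial adhesion molecule, had a mean log2 signal of 13.44, the simple keratins KRT8 and KRT19 each 12.52, and the intestinal lectin LGALS4 11.98. The intestinal factor CDX2 was dim at 6.92, and the enterocyte and goblet cell genes FABP1 and MUC2 lay at 5.86 and 5.96, near the bottom of the scale. Of 14 epithelial and colon markers measured, 1 differed between the LRH-1 siRNAs, the liver-intestine cadherin CDH17, at -0.22 (SE 0.07, adjusted p = 0.037), a call lost in 5 of 12 fits that left out 1 array each. That is 7.14% of the list, near the 7.73% of all genes called higher with siLRH-1 #2. Of 7 measured markers of other cell types, 6 lay between 5.98 and 7.24, and lysozyme, LYZ, at 13.70. The differences of these 7 between the siRNAs lay from -0.12 to 0.02.

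The arrays had nearly equal medians (6.56 to 6.57) and a median probe SD within an arm of 0.086 for siLUC, 0.086 for siLRH-1 #1 and 0.090 for siLRH-1 #2. One array stood apart. In siLRH-1 #2 replicate 2, 50 probes read at least 0.5 higher than in every other array, among them GAL, MSX1, IFITM3, CAV1 and CDKN1A, whereas no other array had more than 1 such probe. Of these 50 probes, 1, for KHDRBS3, was called between the LRH-1 siRNAs, against 9.94% of all probes. A single high array widens the spread of its arm, so few calls follow from how these probes were picked. Values without this array are given where a named gene lost its call or a count moved by more than 1.5 times.

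The LRH-1 siRNAs differed directly at many genes, in both directions and mostly by small amounts. In limma's moderated test with Benjamini-Hochberg adjustment over 16381 probes, at an adjusted p under 0.05, 1629 probes differed directly (9.94%), 789 higher with siLRH-1 #1 (4.82%) and 840 higher with siLRH-1 #2 (5.13%). The arrays of the siRNAs did not overlap for 1472 of the called probes (8.99% of all probes), and 158 called probes were at least 1.5-fold apart (0.965%). Taking the brightest probe of each of 7331 named genes, 1078 genes were called (14.7%), 511 higher with #1 (6.97%) and 567 higher with #2 (7.73%). The median difference over the genes was -0.00488 on the log2 scale. Throughout, a difference is siLRH-1 #1 minus siLRH-1 #2 on the log2 scale, and a negative value means a lower signal with #1.

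Most genes were bounded close together. The 95% interval of the difference lay wholly within 1.2-fold for 4826 genes (65.8%) and wholly beyond it for 262 genes (3.57%). The interval reached a median of 0.14 to either side of the difference. For 11531 of all 16381 probes (70.4%) a difference above 1.2-fold was outside the interval, and for 4471 (27.3%) the interval crossed that size, so neither statement can be made of them.

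At the large differences the siLUC mean mostly lay nearer to the siRNA with the higher signal. This is not the same as a fall with a single siRNA. LAMC1, for example, differed from siLUC in both directions, by 0.32 with #1 and -0.35 with #2. KRT80 had fallen with both, by -0.44 and -1.08. Of the 158 probes at least 1.5-fold apart, the siLUC mean lay nearer to the higher siRNA in 137 (86.7%), and in 38 of them it lay above both. This held for 46 of the 56 probes higher with #1 and for 91 of the 102 probes higher with #2. All 19 probes at least 2-fold apart, from 12 named genes and 2 probes without a name, had the siLUC mean at or above the higher siRNA or nearer to it than to the lower. Among 607 called probes less than 1.2-fold apart, the siLUC mean was nearer to the higher siRNA in 312 (51.4%). The siLUC arrays are shared by both arms in this description, which carries no test.

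**Figure D1:**
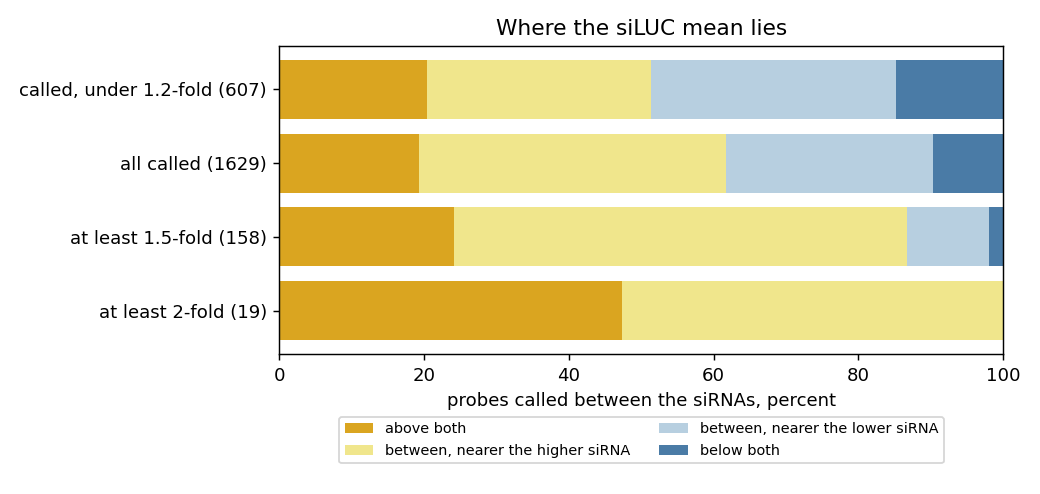
Each bar divides the probes called between the LRH-1 siRNAs, in percent, by where the siLUC mean lies, for 4 sets by size of the difference (number of probes in parentheses). The yellow share, siLUC above both siRNAs or nearer to the higher one, is 51.4% for differences under 1.2-fold, 86.7% at 1.5-fold or more and 100% at 2-fold or more.

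The 15 genes with the largest lower signal with siLRH-1 #1 are drawn by array further on, and all 15 had fallen with #1 against siLUC, by 0.77 to 1.82 on the log2 scale. They, and the 15 in the other direction, were taken from called genes whose arrays did not overlap between the LRH-1 siRNAs. FAM3C, a secreted cytokine-like protein, read 7.54, 7.71, 7.70 and 7.21 in replicates 1 to 4 of siLRH-1 #1 and 9.52, 9.09, 9.03 and 9.49 with siLRH-1 #2. Its siLUC arrays lay between, at 8.75 to 8.94, so the gene fell with #1 and rose with #2. The direct difference was -1.74 (SE 0.11, 3.34-fold, adjusted p = 5.8e-10). It was the only 1 of the 15 that was also called against siLUC with #2, at 0.42 (adjusted p = 0.019).

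CCND3, cyclin D3, which activates CDK4 and CDK6 in G1, read 9.94, 9.90, 9.91 and 9.43 with #1 and 11.80, 11.20, 11.35 and 11.70 with #2. The #2 arrays overlapped those of siLUC (11.43 to 11.87), and the #1 arrays all lay below 10. The difference was -1.71 (SE 0.12, 3.28-fold, adjusted p = 6.3e-09). HADHA, the alpha subunit of the mitochondrial trifunctional protein of fatty acid oxidation, read 6.93, 6.85, 6.96 and 6.70 with #1 and 8.12, 7.79, 8.03 and 8.32 with #2. Again the #2 arrays overlapped those of siLUC (7.92 to 8.24), reaching below and above them, with a direct difference of -1.20 (SE 0.09, adjusted p = 1.7e-08).

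DOLK, the kinase that makes the dolichol phosphate on which glycans are built, read 7.94, 7.87, 7.92 and 7.53 with #1 against 9.07, 8.83, 8.85 and 9.02 with #2. FBXW11, an F-box protein that hands phosphorylated substrates to the SCF ubiquitin ligase, read 8.85 to 9.04 with #1 and 9.91 to 10.25 with #2. CNOT11, a subunit of the CCR4-NOT deadenylase, read 9.83 to 10.10 against 10.86 to 11.23. The differences were -1.13, -1.12 and -1.03 (adjusted p from 1.4e-08 to 4.8e-08). That the arms did not overlap was a condition for choosing these genes. The remaining 9 were GPAT3, an acyltransferase of triglyceride synthesis, the RNA exonuclease REXO5, the actin-binding protein LASP1, MAL2 of apical transport, the iron-sulphur protein CISD2, the chromatin protein HMGB2, the histone co-chaperone DNAJC9, the kinase MAPKAPK5 and the phospholipid flippase ATP11B. Their differences ran from -1.01 for GPAT3 to -0.95 for ATP11B, with adjusted p no higher than 3.4e-06.

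Of the 15 genes with the largest lower signal with siLRH-1 #2, 14 had fallen with #2 against siLUC and 3 had risen with #1. PROSER1, a proline and serine rich protein found with chromatin enzymes, read 8.34, 8.77, 8.50 and 8.30 in replicates 1 to 4 of #2 and 9.76, 9.72, 9.79 and 9.93 with #1. The siLUC arrays stood just under those of #1, at 9.51 to 9.66. The difference was 1.32 (SE 0.08, 2.50-fold, adjusted p = 5.8e-10).

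LRRC8A, the subunit that volume-regulated anion channels cannot do without, read 7.43, 7.68, 7.72 and 7.58 with #2 and 8.68, 8.77, 8.76 and 8.83 with #1, with siLUC at 8.30 to 8.56. It therefore lay below siLUC with #2 (-0.81, adjusted p = 1.3e-07) and above it with #1 (0.34, adjusted p = 0.0035). Its partner LRRC8B was also higher with #1 (9.56 to 9.87 with #2, 10.30 to 10.53 with #1), at 0.72 (SE 0.08, adjusted p = 8.1e-07). For LRRC8B the rise over siLUC with #1 was called (0.53, adjusted p = 7.8e-05) and the difference from siLUC with #2 was not (-0.20, adjusted p = 0.14). LRRC8C, a dim further subunit, was higher with #2, at -0.21 (SE 0.07, adjusted p = 0.048), and lost its call in 12 of the alternative settings, siLRH-1 #2 replicate 2 left out (adjusted p = 0.12) among them.

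CFDP1, a chromatin-associated protein, read 7.78 to 8.06 with #2 and 9.01 to 9.17 with #1, and DYNLRB1, a light chain of cytoplasmic dynein, 9.73 to 10.08 and 10.80 to 11.01. CLDN2, the claudin that forms cation pores in tight junctions, read 10.44 to 10.70 with #2 and 11.54 to 11.71 with #1. In all 3 the #2 arrays lay below every other array, and the direct differences were 1.14, 1.04 and 1.03 (adjusted p no higher than 2.6e-09). GNA12, the alpha subunit of a heterotrimeric G protein, followed at 0.96 and M6PR, which carries lysosomal enzymes, at 0.91. A dim second probe for GNA12, with a mean of 5.95, was not called, whereas every other probe of the 30 genes was called in the same direction.

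EDN1, endothelin-1, was unlike the rest. It read 8.01, 8.00, 7.98 and 8.17 with #1, 7.10, 7.19, 7.34 and 6.91 with #2 and 7.23 to 7.39 with siLUC. Here siLRH-1 #1 stood alone, above siLUC by 0.70 (adjusted p = 2.4e-06), and #2 at -0.20 was not called against siLUC (adjusted p = 0.12). The direct difference was 0.91 (SE 0.08, adjusted p = 5.4e-08). MYEOV, at 0.84, had moved both ways from siLUC, 0.45 with #1 and -0.40 with #2 (adjusted p = 0.00084 and 0.0027). The others were the depalmitoylase LYPLA2, the transcription factor MYB, ATOSA, the coatomer subunit ARCN1, BLCAP and the TFIIE subunit GTF2E1, between 0.77 and 0.81.

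Genes of the G1/S transition and DNA replication stood lower in cells given siLRH-1 #1. Entry into S phase needs the cyclin D and cyclin E kinases, which release E2F factors, and the loading of the MCM2-7 helicase by CDC6 and CDT1, which CDC45 and the GINS complex then activate. Of 27 members measured, 14 were called higher with #2 and 1 higher with #1, with a median difference of -0.19, against 7.73% and 6.97% of all genes. This list and the other gene lists were chosen with earlier results of these data known, so a share set against all genes is no test. Without siLRH-1 #2 replicate 2 the counts were 13 and 2, and CDC6 (-0.19, adjusted p = 0.043) was no longer called (adjusted p = 0.060). Against siLUC, 11 of the 27 had fallen with #1 and 2 with #2 (5.17% and 4.88% of all genes), and 2 had risen with #1 and 1 with #2 (5.05% and 5.14%).

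MCM10, which helps the helicase to start, read 9.30, 9.01, 9.13 and 9.02 with #1 and 10.00, 10.10, 9.73 and 10.15 with #2. The #2 arrays lay within or just above the siLUC range of 9.73 to 10.09, and those of #1 below it, for a difference of -0.88 (SE 0.09, adjusted p = 8.1e-07). CDC45 read 11.24 to 11.53 with #1 and 11.72 to 11.96 with #2 (-0.54, SE 0.08, adjusted p = 3.0e-05). E2F2 differed by -0.49 (SE 0.06, adjusted p = 1.3e-05). None of the 3 overlapped between the arms. Arrays did not overlap for 14.9% of all probes and for 1472 of the 1629 called probes.

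The helicase subunits moved by less. MCM6 read 11.22 to 11.36 with #1 and 11.59 to 11.62 with #2, a difference of -0.34 (SE 0.06, adjusted p = 0.00045). MCM5, MCM4, MCM7 and MCM2 differed by -0.33, -0.25, -0.22 and -0.21, all called (adjusted p from 0.0045 to 0.021). MCM3, the remaining measured subunit of the ring, did not follow: its difference was 0.04 with a 95% interval of -0.08 to 0.16. CDK2 (-0.01, -0.13 to 0.11) and CDK4 (0.07, -0.06 to 0.20) were bounded as closely. CDK6, the other partner of the D-type cyclins, was the member called the other way, at 0.48 (SE 0.07, adjusted p = 5.2e-05), reading 10.45 to 10.67 with #1 and 10.01 to 10.25 with #2. CCNE1, GINS2, LIG1, GINS4 and CDC6 made up the rest of the 14, from -0.33 to -0.19.

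**Figure D2:**
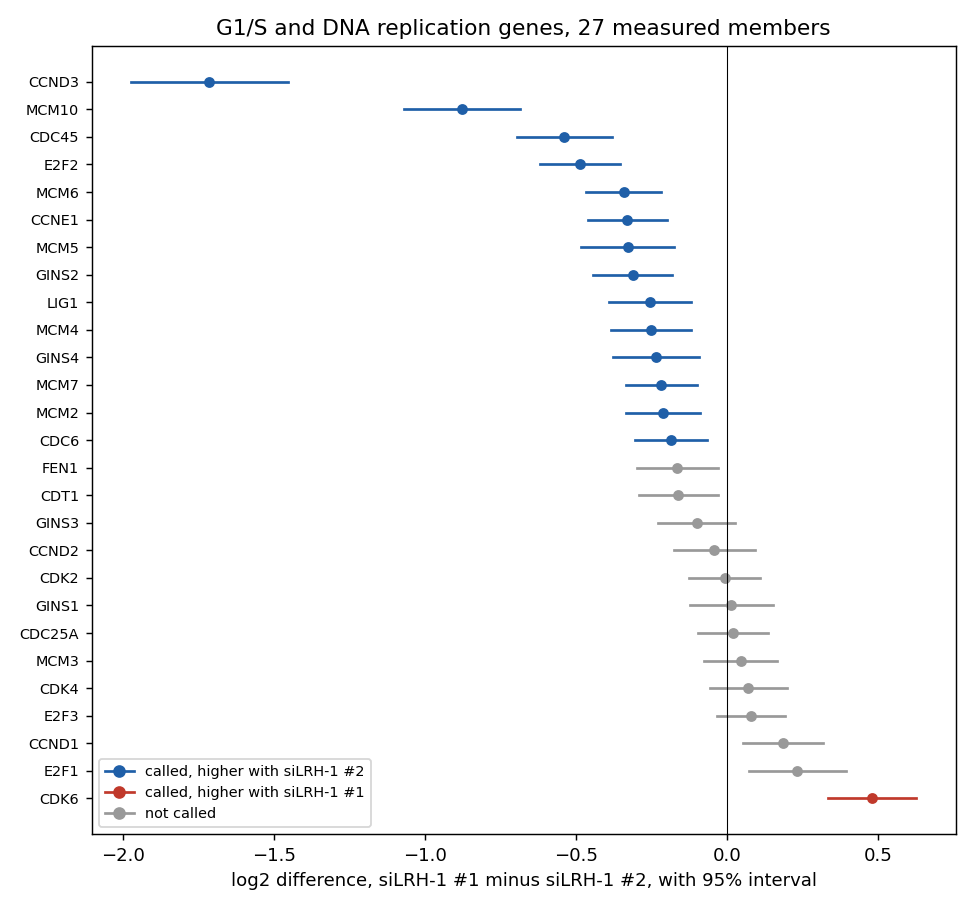
The 27 measured G1/S and DNA replication genes in order of their log2 difference, siLRH-1 #1 minus siLRH-1 #2, with points for the difference and lines for the 95% interval from limma. Blue marks the 14 members called higher with siLRH-1 #2, red the 1 called higher with siLRH-1 #1 (CDK6) and grey the others, with MCM3, CDK2 and CDK4 close to 0.

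Promoters of 4 MCM genes are shown because these genes code for 1 complex, are known targets of E2F factors and did not all move alike. They are from RefSeq on GRCh38.p14, from 250 bases before to 50 after the start of the gene, 5′ to 3′ on the strand of the gene, with matches to the E2F motifs TTTCGCGC and TTTGGCGC, on either strand, in capitals. The first 3 belong to genes called lower with siLRH-1 #1 and the last, MCM3, to the gene that was not called.
MCM6 (chr2:135876394-135876693, minus strand): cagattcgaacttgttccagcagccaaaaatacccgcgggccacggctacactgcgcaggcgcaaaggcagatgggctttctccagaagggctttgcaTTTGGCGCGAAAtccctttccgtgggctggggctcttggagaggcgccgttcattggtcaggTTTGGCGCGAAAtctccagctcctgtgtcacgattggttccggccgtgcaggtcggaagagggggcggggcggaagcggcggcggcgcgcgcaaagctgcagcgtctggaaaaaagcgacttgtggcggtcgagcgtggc
MCM7 (chr7:100101348-100101647, minus strand): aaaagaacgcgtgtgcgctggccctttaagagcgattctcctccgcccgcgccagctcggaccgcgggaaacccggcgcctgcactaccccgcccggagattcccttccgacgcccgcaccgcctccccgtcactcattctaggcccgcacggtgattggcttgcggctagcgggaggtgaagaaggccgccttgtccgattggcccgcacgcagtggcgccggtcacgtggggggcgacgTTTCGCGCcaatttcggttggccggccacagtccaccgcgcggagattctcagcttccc
MCM2 (chr3:127598161-127598460, plus strand): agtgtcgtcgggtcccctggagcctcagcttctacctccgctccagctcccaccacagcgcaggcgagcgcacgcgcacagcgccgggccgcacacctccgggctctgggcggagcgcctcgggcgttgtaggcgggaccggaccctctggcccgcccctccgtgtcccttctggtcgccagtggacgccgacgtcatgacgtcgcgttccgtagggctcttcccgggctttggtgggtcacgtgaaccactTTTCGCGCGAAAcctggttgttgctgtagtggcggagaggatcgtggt
MCM3 (chr6:52284693-52284992, minus strand): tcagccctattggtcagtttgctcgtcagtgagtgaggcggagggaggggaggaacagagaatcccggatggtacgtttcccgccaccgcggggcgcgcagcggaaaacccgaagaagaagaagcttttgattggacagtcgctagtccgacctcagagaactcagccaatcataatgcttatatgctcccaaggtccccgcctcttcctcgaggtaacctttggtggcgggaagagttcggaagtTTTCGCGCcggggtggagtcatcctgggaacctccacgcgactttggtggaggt
The MCM6 window held 4 matches, MCM2 2 and MCM7 and MCM3 1 each, where overlapping matches on opposite strands count separately. Of the 21 measured members with a promoter in the table, 9 held a match (42.9%), against 2.24% of 5805 measured genes and 1.18% of 27305 promoters. Among the 11 members called higher with #2 that had a promoter, 5 held a match (45.5%). GINS1, CDC25A, MCM3 and E2F1, which were not called, also held a match. The list was written from replication genes, so its share against all genes describes that choice and not the siRNAs. A motif match is a description of these letters and was not set against the size of the differences.

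The motif bound by LRH-1, searched as CAAGGTCA or CAAGGCCA on either strand, was present in 2.15% of the 419 promoters of genes called higher with #1, 1.91% of the 470 of genes called higher with #2 and 2.34% of all 5805 measured genes with a promoter.

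Among mitotic genes and CDK inhibitors, most of those called were higher with siLRH-1 #2. Of 28 genes of mitosis and cytokinesis, 9 were called higher with #2 (32.1%, against 7.73% of all genes) and 1, the phosphatase CDC25B, higher with #1 at 0.36 (3.57%, against 6.97%). The other 18 were not called, and the median difference of the list was -0.08. ARPP19, an inhibitor of the phosphatase PP2A in mitosis, read 9.00, 9.08, 9.01 and 8.93 with #1 and 9.96, 9.81, 9.71 and 10.04 with #2. The siLUC arrays lay between, at 9.30 to 9.48, so the arms moved apart in opposite directions, by -0.40 and 0.47 (adjusted p = 0.00060 and 0.00012), and the direct difference was -0.87 (SE 0.07, adjusted p = 2.5e-08). BIRC5, survivin, differed by -0.58 and the kinesin KIF2C by -0.42, and KIF14, ANLN, BUB1B, KIF23, CCNA2 and KIF11 by -0.34 to -0.16. KIF11 lost its call with siLRH-1 #2 replicate 2 left out (adjusted p = 0.068). Against siLUC, 8 of the 28 had risen with #2 and none with #1 (5.14% and 5.05% of all genes). In the other direction, 3 had fallen with #1 and 2 with #2 (5.17% and 4.88% of all genes).

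Of 8 CDK inhibitors and antiproliferative genes measured, 3 were called, all higher with #2 (37.5%, against 7.73% of all genes), and 5 were not. CDKN2D, the p19 inhibitor of CDK4 and CDK6, read 8.10, 8.38, 8.36 and 8.10 with #1 and 8.95, 8.81, 8.87 and 9.16 with #2, with siLUC at 8.45 to 8.56. Its difference was -0.71 (SE 0.08, adjusted p = 1.6e-06). CDKN1B, p27, read 8.30 to 8.52 with #1 and 8.77 to 9.14 with #2, on either side of siLUC (8.52 to 8.70), for -0.60 (SE 0.07, adjusted p = 6.7e-06). The cyclin-dependent kinase phosphatase CDKN3 differed by -0.24 (SE 0.06, adjusted p = 0.0083).

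CDKN1A, which codes for p21, the inhibitor at the centre of the study, was not called. It read 8.34, 8.44, 8.34 and 8.07 with #1 and 8.33, 9.20, 8.37 and 8.34 with #2, so the arms overlapped and a single array, siLRH-1 #2 replicate 2, stood high. The difference was -0.26 (SE 0.14, 95% interval -0.55 to 0.03, adjusted p = 0.30), and without that array it was -0.05 (adjusted p = 0.83). Of 10 measured p53 targets, 1 was called, ZMAT3, at 0.26 (SE 0.06, adjusted p = 0.0089). That is 10.0% of the list, against 6.97% of all genes called higher with #1.

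Apoptosis genes were called in both directions, 7 of 30 higher with #2 and 3 higher with #1 (23.3% and 10.0%, against 7.73% and 6.97% of all genes). The first count fell to 3 without siLRH-1 #1 replicate 4 and to 4 without siLRH-1 #2 replicate 4. MCL1, the labile BCL2 relative that keeps cells alive, read 9.64, 9.49, 9.57 and 9.34 with #1 and 10.26, 9.97, 10.14 and 10.11 with #2 (-0.61, SE 0.07, adjusted p = 2.7e-06), with siLUC at 9.83 to 9.93. The inflammatory caspase CASP4 (-0.54) and the DNase DFFB (-0.45) were higher with #2, and the caspases CASP2 (0.32) and CASP8 (0.26) and the BCL2 relative BCL2L2 (0.26) higher with #1. CASP8 lost its call with siLRH-1 #2 replicate 2 left out (adjusted p = 0.052).

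Wnt targets and intestinal stem cell genes that were called lay on the other side. Of 11 measured, 5 were called, all higher with siLRH-1 #1 (45.5%, against 6.97% of all genes), and the median difference was 0.18. This list too was chosen with earlier results of these data known. DKK1, a secreted Wnt inhibitor, read 12.80, 12.79, 12.82 and 12.85 with #1 and 12.05, 12.36, 11.99 and 11.88 with #2, with siLUC at 12.50 to 12.76. Every #2 array lay below and every #1 array above the siLUC range, for a difference of 0.75 (SE 0.08, adjusted p = 1.6e-06). MYB, a factor of progenitor cells, read 7.98 to 8.06 with #1 and 7.15 to 7.30 with #2 (0.81, SE 0.07, adjusted p = 7.8e-08). AXIN2, the feedback scaffold of the pathway, was 0.43 higher with #1 and MYC 0.25 higher (adjusted p = 9.9e-05 and 0.015). The call of MYC was lost when replicate 2 of #1 or replicate 4 of #2 was left out, and its second probe, with a mean of 10.16, was not called (0.12, adjusted p = 0.39). The stem cell receptor LGR5 was dim, at 6.24 to 6.34 with #1 and 6.03 to 6.08 with #2 (0.22, SE 0.05, adjusted p = 0.0093). Against siLUC, 4 of the 11 had fallen with #2 and none with #1 (4.88% and 5.17% of all genes), and 5 had risen with #1 and 2 with #2 (5.05% and 5.14%).

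Of the kinase signalling and immediate early genes that were called, most were likewise higher with #1. Of 33 MAP kinases, their kinases and phosphatases, 7 were called higher with #1 (21.2%, against 6.97% of all genes) and 1, DUSP23 (-0.31), higher with #2 (3.03%, against 7.73%), and 25 were not called. MAP2K4, which activates JNK and p38, read 8.96, 8.84, 8.86 and 9.15 with #1 and 8.26, 8.56, 8.28 and 8.27 with #2 (0.61, SE 0.08, adjusted p = 1.4e-05). MAP2K3, a p38 activator, and MAPK6, an atypical kinase, differed by 0.47 each, the JNK kinase MAPK9 by 0.39, and MAPKAPK2, a kinase below p38, by 0.38. MAPKAPK5, a related kinase that the list did not hold, was higher with #2, at -0.95.

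Of 24 AP-1 and immediate early genes, 5 were called, all higher with #1 (20.8%, against 6.97% of all genes). They were the matricellular CCN1 (0.31), the helix-loop-helix inhibitor ID1 (0.30), the AP-1 subunits JUN (0.28) and JUND (0.27), and KLF4 (0.24). JUN read 9.69 to 9.79 with #1 and 9.39 to 9.50 with #2, and with siLUC 9.69 to 9.85. This list depended on siLRH-1 #2 replicate 2. Without that array 9 of 24 were called higher with #1 and none higher with #2, and KLF2 went from 0.06 (SE 0.23, adjusted p = 0.92) to 0.46 (adjusted p = 0.0077). DUSP1 and EGR1 were likewise called only without it, at 0.30 and 0.25 (adjusted p = 0.0064 and 0.010).

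Genes of adhesion came mostly from the siLRH-1 #1 side where called. Of 17 integrin, laminin and matrix genes, 4 were higher with #1 (23.5%, against 6.97% of all genes). They were led by the laminin chain LAMC1 at 0.67 (SE 0.07, adjusted p = 4.8e-07). The integrin ITGA2 was the 1 member higher with #2, at -0.30 (5.88%, against 7.73% of all genes).

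Receptors and ligands at the cell surface were split. Of 24 receptor tyrosine kinases and EGF ligands, 5 were called higher with #1 and 3 higher with #2 (20.8% and 12.5%, against 6.97% and 7.73% of all genes). The first count was 3 when replicate 1 of #1 or replicate 4 of #2 was left out. ERBB3, a partner of ERBB2 with little kinase activity of its own, read 8.80, 8.76, 8.76 and 8.75 with #1 and 9.47, 9.24, 9.27 and 9.61 with #2, the latter around the siLUC range of 9.31 to 9.50 (-0.63, SE 0.07, adjusted p = 2.8e-06). Its 2 dimmer probes, with means of 7.93 and 6.79, were not called (-0.15 and -0.16, adjusted p = 0.14 and 0.13). EGFR was 0.28 higher with #1 (SE 0.07, adjusted p = 0.015), EPHA2 0.48 and the EGFR inhibitor ERRFI1 0.40. FGFR3 showed another pattern, above siLUC with both siRNAs, at 8.82 to 8.92 with #1, 9.42 to 9.52 with #2 and 8.07 to 8.26 with siLUC. The arms differed by -0.59 (SE 0.06, adjusted p = 4.9e-07), so the sizes of the rises differed.

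CXCL8, interleukin-8, read 10.42 to 10.77 with #1 and 9.77 to 10.02 with #2 around siLUC at 10.08 to 10.16 (0.64, SE 0.07, adjusted p = 2.4e-06). In tight junctions, 5 of 20 genes were called higher with #1 (25.0%, against 6.97% of all genes), CLDN2 and CLDN1 (0.39) among them. The count higher with #2 was 1 (5.00%, against 7.73% of all genes). Without siLRH-1 #2 replicate 2 the counts were 3 and 2, and the first was also 3 without replicate 2, 3 or 4 of #1 or replicate 1 or 4 of #2. CLDN12 was higher with #2 at -0.37 (SE 0.07, adjusted p = 0.00059). CLDN12 had risen over siLUC with both siRNAs, reading 8.81 to 9.00 with #1, 9.20 to 9.38 with #2 and 7.61 to 7.85 with siLUC.

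In the endoplasmic reticulum, the arms differed gene by gene. Of 30 protein glycosylation genes, 4 were called in each direction (13.3%, against 6.97% higher with #1 and 7.73% higher with #2 over all genes), and without siLRH-1 #1 replicate 1 the count higher with #1 was 2. DPM2, which anchors the dolichol phosphate mannose synthase, read 7.54, 7.40, 7.63 and 7.30 with #1 and 8.40, 8.12, 8.20 and 8.46 with #2 (-0.83, SE 0.08, adjusted p = 3.6e-07). Its fellow subunit DPM3 differed by -0.32 and the glucosyltransferase B3GLCT by -0.72. DOLPP1, which recycles dolichol pyrophosphate, and the transferases ALG11, ALG6 and ALG12 were higher with #1, by 0.47, 0.31, 0.29 and 0.27. Of 19 genes of the unfolded protein response, 4 were higher with #1 (21.1%) and 2 with #2 (10.5%). The count higher with #2 was 1 without siLRH-1 #2 replicate 2, when DNAJB11 (-0.18, adjusted p = 0.043) lost its call (adjusted p = 0.087), and it was never more than 2 when any single array was left out. DNAJB9, a co-chaperone of BiP, read 9.13 to 9.30 with #1 and 8.26 to 8.63 with #2 around siLUC at 8.68 to 8.84 (0.71, SE 0.07, adjusted p = 8.0e-07), and the chaperone calnexin, CANX, fell with #1 (-0.61, SE 0.07, adjusted p = 4.1e-06).

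Metabolic and chromatin genes were called in smaller numbers. Of 16 mitochondrial fatty acid oxidation genes 3 were higher with #2, HADHA, ECI1 (-0.35) and HADH (-0.21), or 18.8% against 7.73% of all genes. HADH did not pass the threshold with siLRH-1 #2 replicate 2 left out (adjusted p = 0.058) and lost its call in 6 of the 12 fits that left out 1 array. HIF1A, the oxygen-regulated factor, read 7.25, 7.22, 7.33 and 7.07 with #1 and 8.24, 7.87, 7.93 and 7.92 with #2 (-0.77, SE 0.08, adjusted p = 1.2e-06), with siLUC at 7.73 to 8.06. EGLN3, a regulator of HIF1A, and the hexokinase HK2 lay the other way, at 0.26 and 0.41. EGLN2, of the same family as EGLN3, was lower with #1 like HIF1A, at -0.71 (adjusted p = 2.4e-07). In cholesterol synthesis, FDPS was lower with #1 (-0.52) and DHCR7 lower with #2 (0.53). Among 28 chromatin genes, 4 were called in each direction (14.3%, against 6.97% higher with #1 and 7.73% higher with #2 over all genes). CBFB, the partner of RUNX factors, rose with #2, at 10.43 to 10.65, with #1 at 9.77 to 9.89 within the siLUC range of 9.68 to 9.94 (-0.69, SE 0.07, adjusted p = 2.4e-07), and the histone methyltransferase EZH2 fell with #1, at 7.91 to 8.15 against 8.42 to 8.64 with #2 (-0.50, SE 0.06, adjusted p = 1.0e-05).

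Some large machines differed little. Of 75 mitochondrial ribosomal proteins, 4 were called higher with #1 and 2 higher with #2, 5.33% and 2.67% against 6.97% and 7.73% of all genes, and for 55 of 75 the interval lay within 1.2-fold. MRPL49 was the member furthest from 0, reading 8.46 to 8.58 with #1 and 8.97 to 9.23 with #2 (-0.55). Of 47 translation factors, 2 were higher with #1 and 4 with #2 (4.26% and 8.51%), and 38 of the 47 were bounded within 1.2-fold. When 1 array at a time was left out, the counts of the mitochondrial ribosomal proteins ran from 1 to 4 and from 2 to 4, and those of the translation factors from 1 to 2 and from 2 to 4. Of 20 interferon-stimulated genes, which double-stranded RNA can induce, 2 were called, IRF7 (-0.34) and ISG15 (-0.27), both higher with #2 (10.0%, near the 7.73% of all genes), and the call of ISG15 was lost without siLRH-1 #1 replicate 4. In the RNA interference machinery itself, 2 of 7 genes were called, 1 in each direction. That is 14.3% each way, against 6.97% higher with #1 and 7.73% higher with #2 over all genes, and rests on 1 gene each. AGO1, an Argonaute, read 7.81 to 8.04 with #1 and 7.27 to 7.53 with #2 (0.49, SE 0.07, adjusted p = 8.2e-05), and DICER1, which cuts microRNA precursors, 8.48 to 8.74 with #1 and 8.80 to 8.90 with #2 (-0.22, SE 0.06, adjusted p = 0.032). Without siLRH-1 #2 replicate 2 DICER1 was not called (adjusted p = 0.064), and it lost its call in 6 of 12 fits that left out 1 array. DICER1 had risen over siLUC with both siRNAs, by 0.39 and 0.61.

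**Figure D3:**
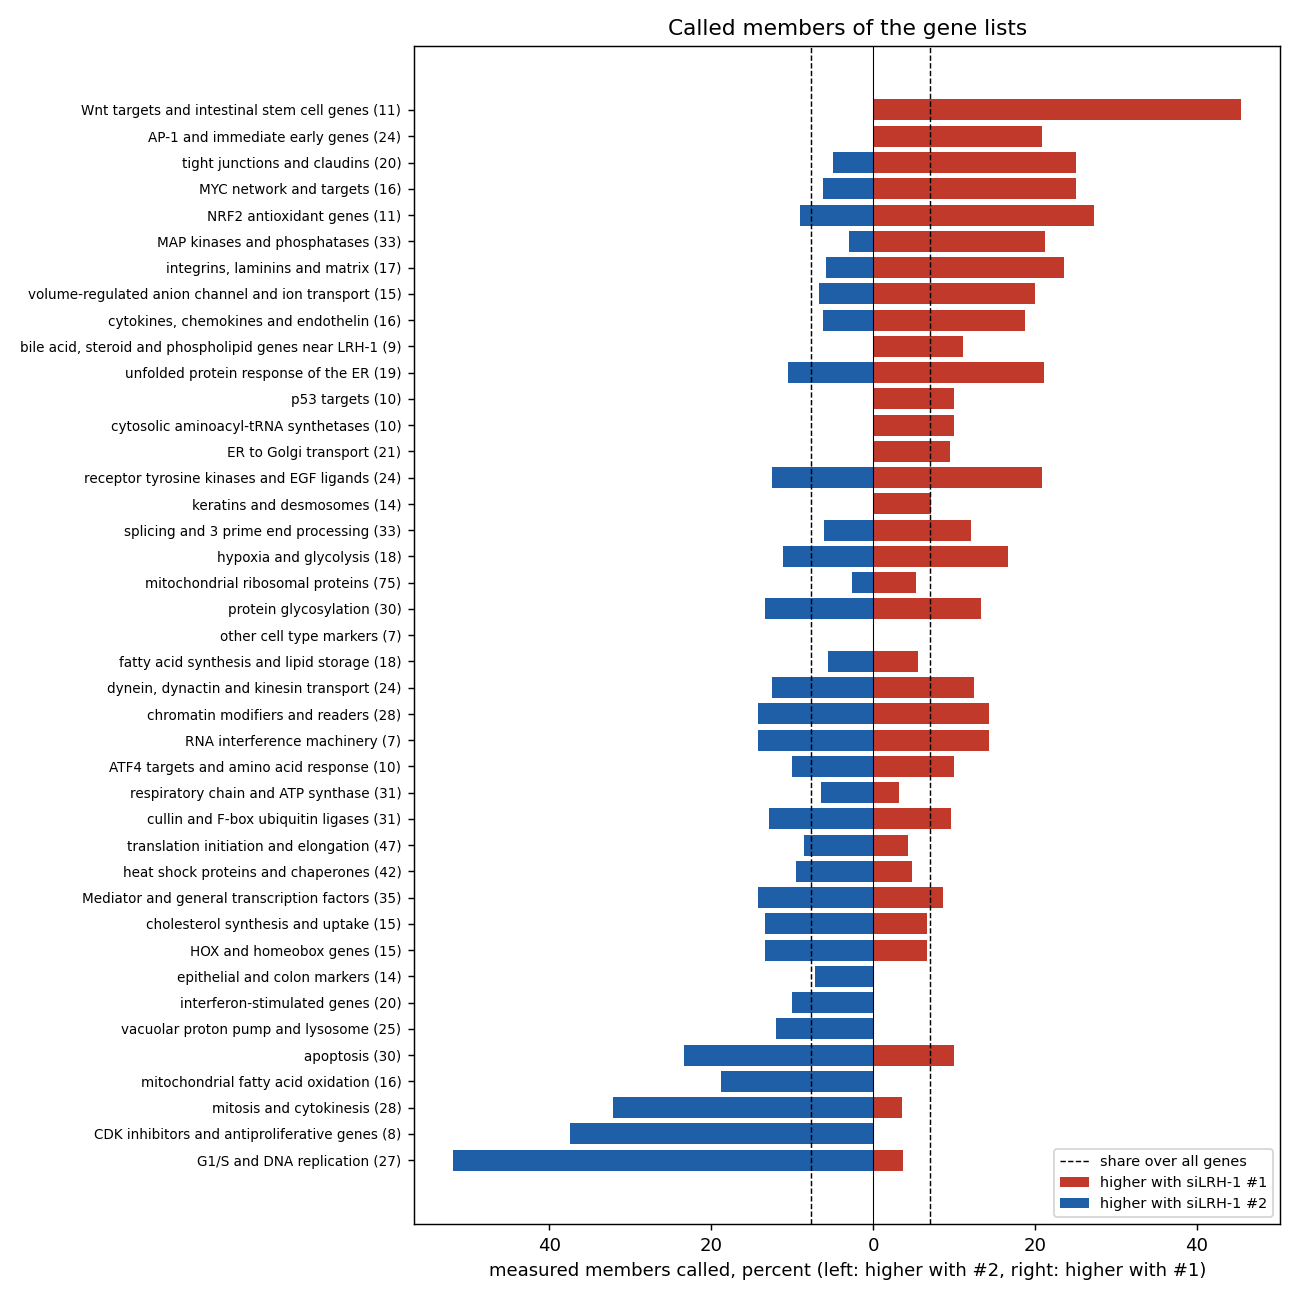
Bars give the percent of measured members (number in parentheses) called higher with siLRH-1 #1, to the right in red, or higher with siLRH-1 #2, to the left in blue, for the 41 of 42 gene lists with at least 7 measured members. Dashed lines mark the share over all genes, 6.97% and 7.73%. The lists were chosen with earlier results of these data known, so the bars carry no test. The list of G1/S and DNA replication genes extends furthest to the left with 14 of 27 members and that of Wnt targets furthest to the right with 5 of 11.

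For a set of genes changed against siLUC by both siRNAs, no direct difference was called. The lack of a call was part of how these genes were chosen. Only the intervals bound their differences, and not all lay within 1.2-fold. Among genes called against siLUC in the same direction with both siRNAs and not called between them, the 10 whose smaller change against siLUC was largest are described. The comparisons with siLUC share the siLUC arrays, and the direct difference does not use them except for the spread. HARS1, the cytosolic histidyl-tRNA synthetase, read 10.19, 10.34, 10.17 and 10.26 with #1 and 10.19, 10.30, 10.31 and 10.20 with #2, against 9.59 to 9.69 with siLUC. The arms overlapped fully and lay apart from siLUC, and the interval of the difference was -0.13 to 0.12, so neither siRNA raised the gene over the other by more than that.

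ERO1A, the oxidase that drives disulphide formation, read 8.62 to 8.78 with #1, 8.68 to 8.91 with #2 and 7.87 to 8.09 with siLUC (interval -0.23 to 0.06). FICD, which modifies BiP, POGLUT3, a glucosyltransferase of the endoplasmic reticulum, and DPH3, which serves diphthamide synthesis, had intervals of -0.10 to 0.17, -0.12 to 0.13 and -0.05 to 0.21. A second DPH3 probe was called higher with #1 (adjusted p = 0.050), just inside the threshold. VMA21, a protein needed to build the proton pump of vacuoles and lysosomes, was the only gene of the 10 that fell, reading 9.25 to 9.39 with #1, 9.17 to 9.42 with #2 and 9.75 to 10.04 with siLUC (-0.14 to 0.17). HOXB6, HERPUD2 and CDC42SE2 had intervals of -0.20 to 0.08, -0.22 to 0.11 and -0.01 to 0.27, and BTG3, an antiproliferative gene, the widest at -0.36 to 0.09. Dimmer second probes did not all show the change against siLUC. That of HOXB6 was called with neither siRNA (-0.08 with #1 and -0.07 with #2). That of HERPUD2 was called only with #2 (0.33, adjusted p = 0.020), and that of CDC42SE2 only with #1 (0.27, adjusted p = 0.011). In BTG3 the divergent array of siLRH-1 #2 stood at 10.58 with the other #2 arrays at 9.83 to 10.02, and without it the difference was 0.02.

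A few genes gave probes that disagreed. Of 1869 genes with more than 1 probe, 2 had probes called in opposite directions. For ATP2A2, the calcium pump of the endoplasmic reticulum, 2 probes were higher with #1, by 0.45 and 0.46 (adjusted p = 3.4e-05 and 0.00011), and the other was higher with #2, at -0.65 (SE 0.08, adjusted p = 4.6e-06), where its mean was 8.82 with #1, 9.48 with #2 and 9.71 with siLUC. For MATR3, an RNA-binding protein of the nuclear matrix, 1 probe was 0.20 higher with #1 and another, dim at 6.60, -0.21, both near the threshold, and the remaining 2 were not called. Dimmer probes of FGFR3, ID1, LRRC8B, CBFB and CASP2 were also not called. MAP2K3 and CASP4 had dimmer probes that were not called and another that was. The called ones kept the direction of the brightest probe, at 0.30 for MAP2K3 and -0.37 for CASP4 (adjusted p = 0.0084 and 0.0014).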

How the data were processed

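RNA from 12 HT29 cultures (4 each of siLUC, siLRH-1 #1 and siLRH-1 #2) was measured on Illumina HumanHT-12 v4 BeadChips. The authors took the images through GenomeStudio, removed probes not detected in any sample, and deposited log2 values, quantile-normalized in Partek (versions not given in the sources used here). Because of that step all arrays have the same distribution, so a shift of all transcripts cannot be seen, and the number of arrays limits the precision. A raw table with 24 columns was not used, since its column names could not be given to a sample.

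The 16381 probes held 0 missing values, and 0 pairs of arrays were identical. Of them 9756 had 1 gene symbol in GEO's platform annotation, 4 several and 6621 none, and 9746 matched a RefSeq gene ID. A gene was represented by its brightest probe over all arrays. limma 3.58.1 in R 4.3.3 fitted 3 group means (9 residual and 12.1 prior degrees of freedom) with Benjamini-Hochberg adjustment over all probes, two-sided, called at 0.05. The procedure was tested on simulated data. Named were the 15 genes with the largest difference in each direction among those called with arrays not overlapping, up to 4 called members of each of 42 gene lists, the 10 shared genes and CDKN1A, 155 genes in all. Other members of lists are given as members of a count. Genes outside the naming rule (KLF2, DUSP1, EGR1, MCM3, CDK2, CDK4, EGLN2, ATP2A2, MATR3 and the probes of the divergent array) were chosen after their values were seen. A further list of genes is not reported here. The members and lists were chosen with earlier results of these data known. Alternatives changed the arrays in the fit, normalization, filter, moderation, weights, probe summary and replicate block, and left out each array in turn.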

Additional observations from a re-analysis of the deposited data

Results flagged for a closer look

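In 26 of 465 groups of 4 arrays examined (5.59%), 1 array lay far from the other 3 of its arm, and chance alone sets about 1 in 20 groups apart in this way. Among genes lower with siLRH-1 #1, its replicate 4 stood lowest at 9.43 for CCND3, 9.31 for GPAT3, 10.22 for DNAJC9 and 11.93 for ATP5PB, a subunit of ATP synthase. Among genes higher with siLRH-1 #1, the same array stood highest at 8.17 for EDN1 and 8.84 for EPHA2. Without this array the count of called probes fell to 1184.

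In siLRH-1 #2 replicate 2, CDKN1A stood at 9.20, MAP2K4 at 8.56 and MXD3, a MYC antagonist, low at 6.40. Other siLRH-1 #2 arrays apart from their arm were replicate 3 for FICD (7.91) and MRPL47 (8.82) and replicate 4 for KIF2C (9.07). In siLRH-1 #1, they were replicate 1 for ERBB3 (8.80) and BICD2 (8.70), replicate 2 for EGLN3 (6.30) and KRT80 (9.73), and replicate 3 for the KDEL receptor KDELR3 (8.97) and EIF4E2 (10.91).

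In the siLUC arm, replicate 1 lay apart for PROSER1 (9.51), BIRC5 (9.46) and KIF2C (9.14), replicate 2 for HOXB2 (6.84), replicate 3 for KDM5B (8.72) and MAP2K4 (8.61), and replicate 4 for DOLPP1 (8.91) and LAMC1 (9.60). All values are log2 signals.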

How the results depend on the processing

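Named genes and counts kept their direction under the alternatives except as follows. Of the 155 named genes, 1 to 14 lost their call when 1 array was left out and 0 to 13 under the other alternatives, the most (13) without moderation of the spread. Outside the settings that left out an array, the count of called probes ran from 1425 to 2000, and the 30 genes with the largest differences kept call and direction in all 630 values under 21 alternatives. Those 30 genes were chosen on these same arrays for large differences without overlap, so their steadiness was largely set by the choice. With the probes brighter than the median, 5181 probes had an interval within 1.2-fold, since fewer probes were tested. The count of replication genes higher with siLRH-1 #1, 1 with all arrays, was 2 from only the 8 LRH-1 siRNA arrays and 3 with the brighter probes, with an intensity trend and robust prior and with the mean of the probes of a gene, and the cause was not tested. Leaving out 1 array at a time gave 1184 (without siLRH-1 #1 replicate 4) to 1619 called probes, 546 to 781 higher with #1, 638 to 850 higher with #2, 136 to 182 at least 1.5-fold apart, 119 to 154 with siLUC nearer the higher siRNA, 10355 to 11580 within 1.2-fold, and 11 to 14 replication genes higher with #2 and 1 to 2 higher with #1. Without siLRH-1 #2 replicate 2, 1423 probes were called in the same direction as with all arrays. Of the 10 shared genes, 6 had differences so near 0 that the sign turned, with none called, over ranges of -0.038 to 0.019 for HARS1, -0.027 to 0.058 for VMA21, -0.000664 to 0.056 for FICD, -0.225 to 0.025 for BTG3, -0.105 to 0.048 for HERPUD2 and -0.012 to 0.022 for POGLUT3. The replicate block gave 1538 called probes and 12 replication genes higher with #2. Same-numbered arrays of the LRH-1 siRNAs correlated in their deviations at -0.06, 0.05, 0.07 and 0.20, those of siLUC and #1 at -0.05 to 0.18 and those of siLUC and #2 at -0.15 to -0.10. The numbers were therefore not taken to pair the cultures, and not every array was closest to its own number. A fit on raw signals was not run, since their columns could not be given to a sample. Values at the low end of the scale, as for LGR5, LRRC8C and CDX2, are limited by signal over background.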

Other observations

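A pattern among the arrays of 1 arm was seen in the genes with the largest differences, and was looked for after their values were seen. Of the 15 genes with the largest lower signal with siLRH-1 #1, replicates 1 and 4 lay above replicates 2 and 3 in the siLUC arm for 14 and in the siLRH-1 #2 arm for 15. Over the 885 members of all lists this was so for 18.4% in the siLUC arm and 16.5% in the siLRH-1 #2 arm. CCND3 shows it, with siLUC arrays at 11.87, 11.43, 11.46 and 11.69 and siLRH-1 #2 arrays at 11.80, 11.20, 11.35 and 11.70. In the siLRH-1 #1 arm, where these genes had fallen, the order was seen in 1 of the 15.

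Replicate 4 of siLRH-1 #1 was the lowest of its arm for 13 of these 15 genes and the highest for 13 of the 15 genes with the largest higher signal with siLRH-1 #1, against 24.2% and 27.7% of the members of all lists. The genes were ranked on these same arrays, so the shares carry no test. Neither the order of the replicates in siLUC nor the position of replicate 4 was tied to a scan, slide or transfection day, which the labels do not give.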
